A study of Mus musculus with 8 samples.

Results

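The Dlk1-Meg3 cluster is an imprinted domain of mouse chromosome 12, and 5 of its RNAs are described here: Dlk1, Rtl1, Meg3, Rian and Mirg. They were chosen by gene symbol, 5 of 23420 entries in the deposited count tables, with their values in these libraries already known. Their fold changes between knockdown and scrambled cells are therefore given as a description, without p-values. Counts of members past a threshold stand beside the share of all genes past it, and support nothing. The libraries come from NIH3T3, an immortalised line of mouse embryonic fibroblasts, selected with puromycin for 1 week or longer after receiving an shRNA. The knockdown libraries (shRPRD1B, n = 4) carried shRNA against RPRD1B, a protein that binds the tail of RNA polymerase II. They were set against scrambled libraries (shScrambled, n = 4) that carried an shRNA of scrambled sequence. Replicates 1 and 2 of each group were deposited as set 1 and replicates 3 and 4 as set 2. The labels do not say what separates the sets, nor whether replicates were separate cultures, so p-values measure only the spread between these libraries. They do not say either whether the cells were a pool or a single clone. All 8 libraries share the cell line and the puromycin selection.

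In an imprinted domain the copies inherited from the mother and the father are used unequally. From the paternal copy, cells of the mouse make the protein-coding RNAs Dlk1, Rtl1 and Dio3. From the maternal copy they make a run of noncoding RNAs on the plus strand: Meg3, an antisense RNA to Rtl1, Rian and Mirg. A methylated stretch between Dlk1 and Meg3 sets which copy does which. The counts do not separate the parental copies, so "paternal" and "maternal" below are textbook assignments and not measurements.

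On RefSeq's GRCm38.p6 assembly of chromosome 12, Dlk1 lies on the plus strand at 109452485-109463336. Meg3 starts 77659 bases further on and occupies 109540996-109571729 on the plus strand. Rtl1 lies on the minus strand at 109564900-109604418 and overlaps the annotated span of Meg3 by 6830 bases. Rian follows on the plus strand at 109603945-109661716 and overlaps the Rtl1 span by 474 bases. Mirg lies 73264 bases after Rian, at 109734981-109749458 on the plus strand. The library kit is not described as stranded, so reads from Rtl1 and from the RNA opposite to it cannot be told apart in these counts.

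The noncoding side of the cluster is known as a source of small RNAs. RefSeq lists at least 58 microRNA hairpins between Dlk1 and Dio3, at least 54 of them on the plus strand. Of these hairpins, 13 on the plus strand lie inside the Rtl1 interval, 10 lie inside Mirg and 3 inside Rian. Mir1906-1 and Mir770 lie inside Meg3. Some of the hairpins opposite Rtl1 are known as pieces of its antisense RNA. From the Rtl1 interval 5 mature microRNAs are shown, because they share it with the member whose reads cannot be assigned to a strand. In the sequences below, written 5′ to 3′, capitals mark the seed (bases 2 to 8), the stretch by which a microRNA finds its targets.
mmu-miR-431-5p: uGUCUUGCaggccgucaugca
mmu-miR-433-3p: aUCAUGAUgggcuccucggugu
mmu-miR-127-3p: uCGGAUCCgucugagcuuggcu
mmu-miR-434-3p: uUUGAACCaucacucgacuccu
mmu-miR-136-5p: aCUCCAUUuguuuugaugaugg

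These 5 mature microRNAs have 5 different seeds, and each seed occurs once in the cluster. Over the cluster, 113 mature microRNAs carry 104 seeds, and 9 seeds occur in 2 mature microRNAs each. The pairs shown next are examples from the stretch between Rian and Mirg. Each pair has a shared seed and at most a few differing bases after it.
mmu-miR-379-3p: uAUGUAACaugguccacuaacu
mmu-miR-411-3p: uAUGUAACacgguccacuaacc
mmu-miR-376c-5p: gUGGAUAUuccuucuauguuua
mmu-miR-376b-5p: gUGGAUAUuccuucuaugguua

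The start of Meg3 is shown because Meg3 is the first of the maternal RNAs. The window at chr12:109540746-109541045 (plus strand, GRCm38.p6, RefSeq) runs from 250 bases before the annotated start to 50 after it. Capitals mark 3 motifs that were searched for on both strands.
Meg3 promoter window: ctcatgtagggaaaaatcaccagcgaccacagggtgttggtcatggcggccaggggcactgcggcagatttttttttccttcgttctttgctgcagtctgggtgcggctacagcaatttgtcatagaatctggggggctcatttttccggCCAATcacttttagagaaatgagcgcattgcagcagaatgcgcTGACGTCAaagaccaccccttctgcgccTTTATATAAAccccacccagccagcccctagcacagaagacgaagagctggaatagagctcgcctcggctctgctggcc

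The window holds TATAAA at -25 on the plus strand and, overlapping it, at -29 on the minus strand. It holds TGACGTCA, the full cyclic AMP response element, which reads the same on both strands, at -57, and CCAAT at -100. Among 32851 promoter windows of the same length, 13.6% hold TATAAA, 1.79% hold TGACGTCA and 37.4% hold CCAAT on either strand. GGGCGG, found in 35.7% of windows, is not in this one. RefSeq also gives Meg3 a window for a later start, at 109545148-109545447, which holds none of the 4 motifs. Of the windows listed for the other members, that of Mirg holds CCAAT at -184, and those of Dlk1 and Rian hold none of the 4 motifs. These matches describe the letters and are no measure of binding.

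Total counts ranged from 12311442 to 23223139 per library. Fibroblast markers summed to 16200 to 16600 CPM (counts scaled to a common library total, by the TMM method) in knockdown libraries and 16300 to 16800 CPM in scrambled libraries, with 9 of 9 markers tested. Of these 4 were called by edgeR, where 7.57% of all tested genes were: Col3a1, Pdgfra and Vim rose by 0.46, 0.37 and 0.12 on the log2 scale and Pdgfrb fell by 0.16. Epithelial markers summed to at most 0.0702 CPM in knockdown libraries and 0.146 CPM in scrambled libraries, with Epcam, Krt8 and Krt19 at 0. The muscle markers Myod1, Myog and Myf5, the immune marker Cd3e and the neural marker Olig2 were also at 0. Endothelial markers summed to 0.281 to 0.658 CPM in knockdown libraries and 0.176 to 0.384 CPM in scrambled libraries. Immune markers summed to 5.79 to 7.58 CPM in knockdown libraries and 5.05 to 10.7 CPM in scrambled libraries. Neural markers summed to 14.1 to 21.3 CPM in knockdown libraries and 10.8 to 14.7 CPM in scrambled libraries. Of 5 neural markers 2 were tested and 1 was called, Snap25, which rose by 0.42 on the log2 scale. The part of these fibroblast and neural markers in the results below was not tested. Rprd1b, the target, had 26.4, 28, 22.5 and 22.7 CPM in knockdown libraries 1 to 4, against 42.3, 44.4, 39.5 and 40.8 CPM in scrambled libraries 1 to 4. Its log2 fold change was -0.75 ± 0.07 (SE; adjusted p = 4.14e-14, edgeR quasi-likelihood test with Benjamini-Hochberg adjustment).

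Whether the difference followed the parent of origin cannot be told, since Rtl1 counts may hold the maternal RNA opposite to it. Dlk1 had nearly the same level in both groups, while Rtl1, Meg3, Rian and Mirg each had less RNA in knockdown libraries in both sets. Over both sets Rtl1 was 36.2% lower, Rian 32.7%, Meg3 32.2% and Mirg 23.9% lower in knockdown than in scrambled libraries. In bulk RNA, fewer cells that make an RNA and less RNA per cell cannot be told apart.

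Dlk1 encodes a transmembrane protein of the delta-like family, also called Pref-1, known for holding back the differentiation of preadipocytes. It had 761, 832, 708 and 784 CPM in knockdown libraries 1 to 4, against 778, 838, 743 and 701 CPM in scrambled libraries 1 to 4. The groups overlapped over their whole range. The means were 771 ± 51.5 CPM in knockdown libraries and 765 ± 57.6 CPM in scrambled libraries (SD, n = 4 each), and the log2 fold change over both sets was 0.01 ± 0.03 (SE). Within set 1 it was -0.02 ± 0.04 and within set 2 it was 0.04 ± 0.04.

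Rtl1 is a gene derived from a retrotransposon whose protein is needed in the fetal capillaries of the mouse placenta. It had 18.1, 20.6, 15.7 and 11.6 CPM in knockdown libraries 1 to 4, against 32.6, 32.8, 17.7 and 20.7 CPM in scrambled libraries 1 to 4. Knockdown libraries lay below scrambled libraries within each set, but knockdown libraries 1 and 2 were above scrambled library 3 of the other set. The log2 fold change was -0.65 ± 0.09 (SE) over both sets, -0.75 ± 0.11 in set 1 and -0.52 ± 0.13 in set 2. The set 2 value rested on single libraries: it was -0.29 without knockdown replicate 4, -0.41 without scrambled replicate 4 and -0.72 without knockdown replicate 3. Its set 2 call was lost in the first and the second of these fits.

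Meg3 is the first RNA of the maternal run and is known as a nuclear noncoding RNA. It had 169, 185, 179 and 154 CPM in knockdown libraries 1 to 4, against 300, 285, 215 and 221 CPM in scrambled libraries 1 to 4. All 4 knockdown libraries were below all 4 scrambled libraries, and the scrambled libraries of set 1 stood above those of set 2. The means were 172 ± 13.4 CPM in knockdown libraries and 255 ± 43.5 CPM in scrambled libraries (SD, n = 4 each). The log2 fold change was -0.56 ± 0.09 (SE) over both sets, -0.72 ± 0.05 in set 1 and -0.40 ± 0.05 in set 2.

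Rian carries C/D-box small nucleolar RNAs in its introns. It had 150, 153, 147 and 144 CPM in knockdown libraries 1 to 4, against 240, 219, 207 and 216 CPM in scrambled libraries 1 to 4. The groups did not overlap, and Rian averaged 148 ± 3.73 CPM in knockdown libraries and 221 ± 14.3 CPM in scrambled libraries (SD, n = 4 each). Its log2 fold change was -0.57 ± 0.04 (SE) over both sets, -0.60 ± 0.05 in set 1 and -0.54 ± 0.05 in set 2.

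Mirg is the host of a microRNA cluster at the far end of the run. It had 19.9, 20.8, 15.8 and 17.1 CPM in knockdown libraries 1 to 4, against 32.2, 25.5, 19.6 and 20.6 CPM in scrambled libraries 1 to 4. Knockdown libraries lay below scrambled libraries within each set, but knockdown library 1 lay above scrambled library 3 of the other set and knockdown library 2 above scrambled libraries 3 and 4. The log2 fold change was -0.39 ± 0.08 (SE) over both sets, -0.50 ± 0.11 in set 1 and -0.28 ± 0.12 in set 2. Mirg rested on 196 to 393 counts in knockdown libraries and 268 to 439 counts in scrambled libraries.

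**Figure D1:**
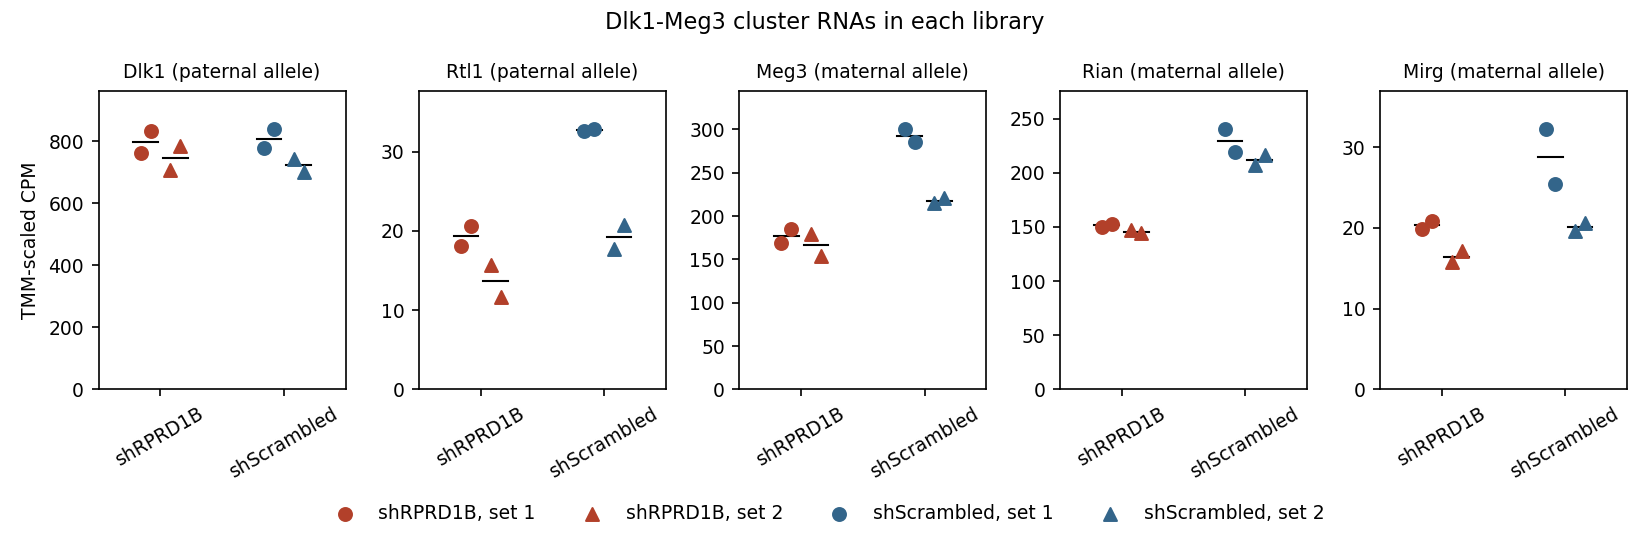
Level of each cluster RNA (CPM, TMM-scaled, linear axis from 0) in the 4 knockdown and 4 scrambled libraries, with circles for set 1, triangles for set 2 and a line at each mean of 2 libraries. The parental copy named above each panel is background and was not measured. Dlk1 overlaps between the groups, and all 4 knockdown libraries lie below all 4 scrambled libraries for Meg3 and Rian.

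**Figure D2:**
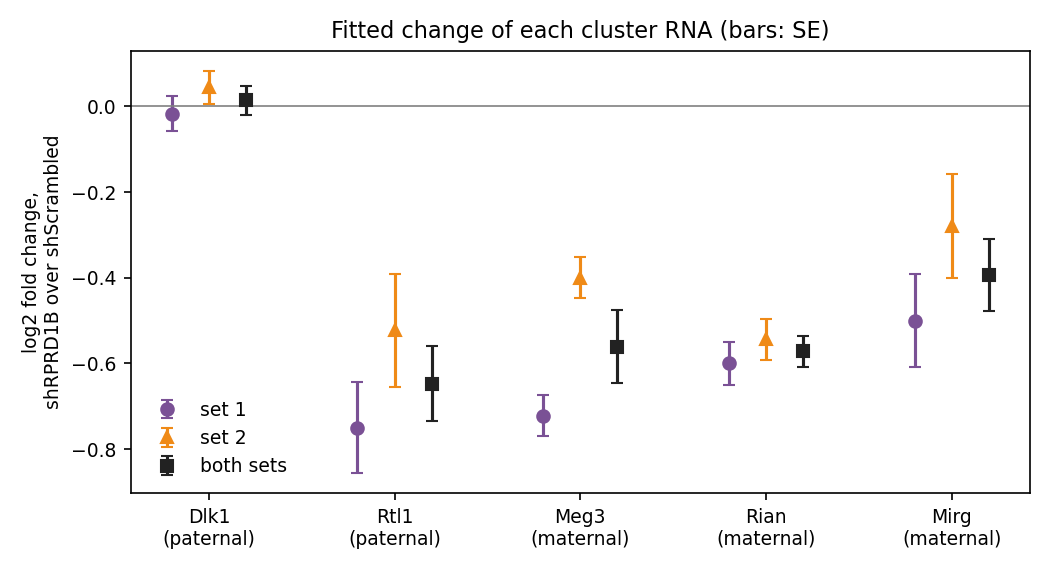
Fitted log2 fold change of knockdown over scrambled libraries for each RNA within set 1, within set 2 and over both sets, with bars of 1 SE. Dlk1 lies at 0.01 over both sets and the other 4 RNAs between -0.65 and -0.39.

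Over both sets 4 of the 5 RNAs passed an adjusted p under 0.05, all of them lower, where 7.57% of 11723 tested genes passed in either direction and 3.61% were lower. Within set 1 the count was 4 of 5, where 4.86% of 11585 genes passed and 2.18% were lower. Within set 2 it was 3 of 5, without Mirg, where 5.19% of 11779 genes passed and 2.64% were lower. The difference between the sets passed for 1 of 5, Meg3, where 0.247% of genes passed. By DESeq2 the count was 3 of 5 in set 1, without Mirg, and 2 of 5 in set 2, without Mirg and Rtl1. Because the RNAs were chosen with these values known, nothing is read from the counts. For 4 of the 5 RNAs both knockdown libraries lay below both scrambled libraries in each set, as for 8.18% of tested genes. Meg3 and Rian had every knockdown library below every scrambled library, as did 1.74% of tested genes. The Meg3 call over both sets was lost without knockdown replicate 2 (-0.55 on the log2 scale), without knockdown replicate 4 (-0.55) and without scrambled replicate 2 (-0.55), and with replicate number as a block (-0.56). The Mirg call of set 1 was lost without knockdown replicate 1, knockdown replicate 2 or scrambled replicate 1, where its value ranged from -0.66 to -0.32 over the 4 fits that left out 1 library.

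The authors' deposited table of set 1 gives log2 fold changes of -0.71 for Meg3, -0.59 for Rian, -0.71 for Rtl1, -0.46 for Mirg and -0.02 for Dlk1. In the authors' deposited table of set 2 the value is -0.54 for Rian, -0.45 for Rtl1 and -0.26 for Mirg. The authors' deposited tables give q-values of 0.0523 for Mirg in set 1, 0.188 for Rtl1 in set 2 and 0.532 for Mirg in set 2, all above 0.05. No set 2 value from the authors is given here for Dlk1 and Meg3.

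The levels also differed between the sets, as did those of most genes: all 5 RNAs were called lower in set 2 than in set 1, where 65.9% of tested genes were called in either direction and 32.9% lower. The log2 difference of set 2 minus set 1 was -0.67 ± 0.09 (SE) for Rtl1, -0.41 ± 0.08 for Mirg, -0.26 ± 0.09 for Meg3, -0.13 ± 0.03 for Dlk1 and -0.09 ± 0.04 for Rian. Rtl1 and Mirg, the 2 rarest members, had the widest gap between sets, and Rian the narrowest. With no filter, and again by DESeq2, 4 of 5 were called between sets, without Rian. The calls of Meg3 and Rian between sets were lost when some single libraries were left out, where the difference ranged from -0.33 to -0.22 for Meg3 and from -0.11 to -0.06 for Rian. The libraries whose absence lost a call were knockdown replicates 2 and 4 for both RNAs, scrambled replicates 2 and 4 for Meg3, and scrambled replicates 1 and 3 for Rian.

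Together the 5 RNAs took 0.107 to 0.121% of all counts in knockdown libraries and 0.119 to 0.136% in scrambled libraries. The noncoding RNAs Meg3, Rian and Mirg together took 0.0311 to 0.0357% in knockdown libraries and 0.0454 to 0.0564% in scrambled libraries. Those ranges did not overlap. Most of these counts came from Meg3 and Rian. Each of those had every knockdown library below every scrambled library, as did 1.74% of tested genes. The separation of the sum restates their lower levels and supports nothing further.

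Levels of different RNAs were compared per length, as TPM (counts per base of exon, scaled to a common total) over the merged exons of GENCODE M21, since the annotation behind the counts is not given in the sources used here. Dlk1 was the most abundant member at 603 ± 32.4 TPM in knockdown libraries and 600.0 ± 31.3 TPM in scrambled libraries (SD, n = 4 each), and it ranked between 239 and 264 among 21751 entries. Meg3 came next at 42.0 ± 3.1 TPM in knockdown libraries and 62.5 ± 9.35 TPM in scrambled libraries. Rian followed at 36.0 ± 0.432 TPM in knockdown libraries and 53.7 ± 3.0 TPM in scrambled libraries. The ranges of Meg3 and Rian do not settle their order, because with the longest single transcript as the length Rian stood at 59.8 TPM in knockdown and 89.2 TPM in scrambled libraries, above Meg3 at 38.5 and 57.3 TPM. Rtl1 had 11.5 ± 2.45 TPM in knockdown libraries and 18.0 ± 5.09 TPM in scrambled libraries, and Mirg had 11.1 ± 1.16 TPM in knockdown libraries and 14.8 ± 3.24 TPM in scrambled libraries, within each other's spread. With the longest transcript Mirg stood above Rtl1, at 15.7 against 8.45 TPM in knockdown libraries and 20.9 against 13.3 TPM in scrambled libraries.

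A ratio between 2 RNAs of the same library does not depend on how libraries are scaled to each other. The ratio of Dlk1 to Meg3, in counts per kb of exon, was 14.4, 14.4, 12.6 and 16.3 in knockdown libraries 1 to 4, against 8.28, 9.41, 11.1 and 10.1 in scrambled libraries 1 to 4. The groups did not overlap, and the log2 ratio was 0.71 higher in knockdown libraries in set 1 and 0.44 higher in set 2. The ratio of Rian to Meg3 was 0.859 ± 0.0544 in knockdown libraries and 0.87 ± 0.107 in scrambled libraries (SD, n = 4 each), with overlap. The sets went opposite ways for Rian, with a log2 difference of 0.13 in set 1 and -0.15 in set 2. The ratio of Rtl1 to Meg3 was 0.272 ± 0.048 in knockdown libraries and 0.284 ± 0.0419 in scrambled libraries, and that of Mirg to Meg3 was 0.266 ± 0.0326 in knockdown libraries and 0.236 ± 0.0199 in scrambled libraries. Both overlapped between the groups. Every knockdown library lay below every scrambled library for Meg3, so a gene of near equal level in both groups, such as Dlk1, gives a higher ratio. The separation of the Dlk1 ratio restates the lower Meg3 level and supports nothing further.

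**Figure D3:**
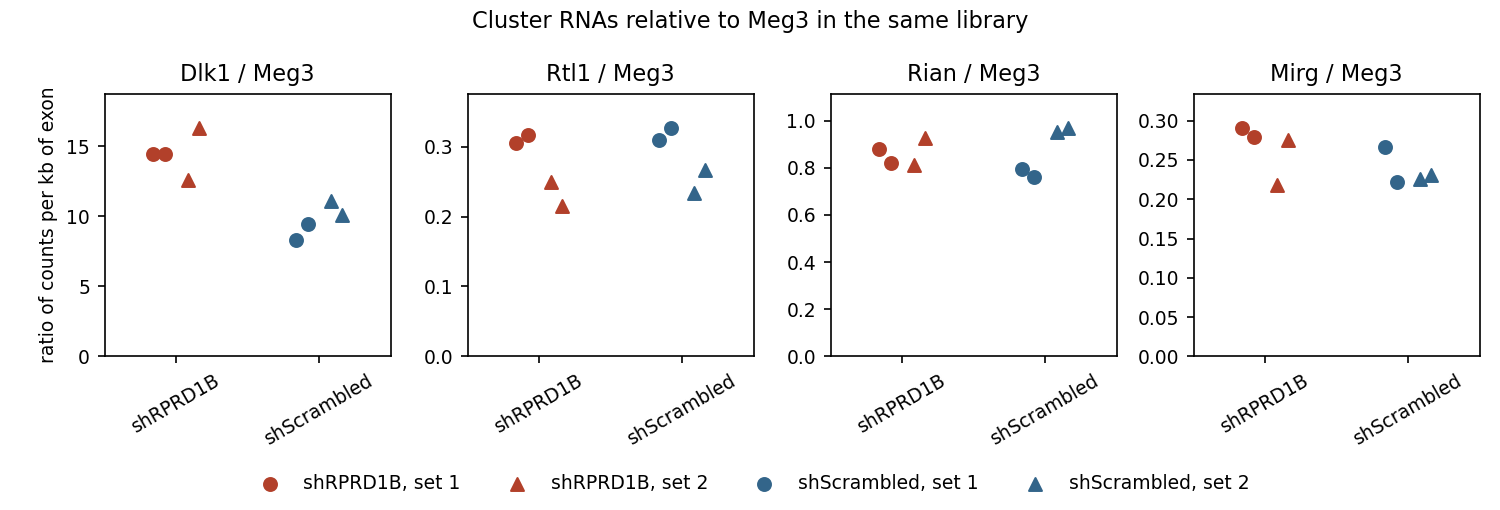
Ratio of each RNA to Meg3 in the same library (counts per kb of merged exon, linear axes from 0), with knockdown libraries left of scrambled libraries, circles for set 1 and triangles for set 2. Dlk1 to Meg3 is 12.6 to 16.3 in knockdown libraries and 8.28 to 11.1 in scrambled libraries, while the other 3 ratios overlap.

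The patterns over the 8 libraries, after each gene was centred within its set, were compared with those of 10163 genes. By the naming rule this was done for Dlk1, the most abundant member. The 4 genes nearest to Dlk1 were Nmt1, Hspb6, Flot2 and Il1rap, with root-mean-square log2 differences of 0.0158, 0.0213, 0.0249 and 0.0261 over 8 libraries. None of the other members was near it: Mirg ranked 9534, Rian 9945, Meg3 9970 and Rtl1 10061. The same measure was taken for Meg3 after its values had been seen. Rtl1 ranked 1 at 0.0854 and Rian ranked 2 at 0.0889 for likeness to Meg3, followed by Abhd1 at 0.0902 and Fzd4 at 0.0993. Mirg ranked 30 at 0.14 and Dlk1 ranked 5112 at 0.313. The difference between the groups enters this measure, which describes these libraries.

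Besides the members, 68 entries of the count tables lie between the first base of Dlk1 and the last base of Dio3. Of these, 57 are microRNA hairpins, 7 are small nucleolar RNAs and 3 are long noncoding RNAs. Dio3, the deiodinase that inactivates thyroid hormone and closes the imprinted domain, was at 0 counts in all 8 libraries, and 3 counts would have been 0.129 to 0.244 CPM. The hairpin entries reached at most 11 counts, 47 of 57 had any count and none was tested, so these RNA-seq libraries hold no usable measure of the microRNAs printed above. Summed over the hairpin entries, knockdown libraries 1 to 4 had 83, 77, 27 and 89 counts, against 119, 82, 53 and 49 counts in scrambled libraries 1 to 4. Scaled for depth, these were 5.83, 5.07, 2.17 and 3.88 CPM against 8.72, 6.0, 3.12 and 3.77 CPM. The groups overlapped over both sets and within set 2, while knockdown libraries were lower within set 1. The counts are too few to say more.

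Of the 3 other cluster entries with a mean count of at least 10, 1 was called. The long noncoding RNA 6430411K18Rik, which lies inside the Rtl1 interval at 109591537-109592851, had 32, 34, 31 and 34 counts in knockdown libraries 1 to 4, against 51, 79, 50 and 39 counts in scrambled libraries 1 to 4. These counts are not scaled for depth, and knockdown library 4 was the deepest, at 23223139 total counts against 12891676 in scrambled library 4. With scaling, 6430411K18Rik had a log2 fold change of -0.88 ± 0.22 (SE; adjusted p = 0.00456, edgeR quasi-likelihood test), with -1.08 in set 1 and -0.65 in set 2. It was named after its values were seen, and its reads cannot be told apart from those of Rtl1 without strand. The small nucleolar RNA AF357359, inside Rian, had a log2 fold change of -0.91 ± 0.36 (adjusted p = 0.113, edgeR), and 3110009F21Rik, a long noncoding RNA, had -0.42 ± 0.31 (adjusted p = 0.516, edgeR). Neither passed the test.

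The genes around the cluster are described next, where 7.57% of all tested genes were called in either direction. The nearest tested gene before Dlk1 was Begain, at 384 kb, with 2.65 ± 0.722 CPM in knockdown libraries and 3.26 ± 0.984 CPM in scrambled libraries (SD, n = 4 each; log2 fold change -0.30 ± 0.21 SE, adjusted p = 0.496, edgeR). The nearest after Dio3 was Ppp2r5c, at 166 kb, with 85.6 ± 6.22 CPM in knockdown libraries and 86.7 ± 6.46 CPM in scrambled libraries (log2 fold change -0.02 ± 0.05 SE, adjusted p = 0.875, edgeR). Within 0.5 Mb of the cluster's ends, 5 tested genes had log2 fold changes from -0.35 to -0.02, with a median of -0.08. Within 1 Mb, 1 of 19 was called, and within 5 Mb 1 of 58, all lower. On chromosome 12, leaving out only the 5 members, 4 of 381 tested genes were higher and 28 lower, with a median of -0.063. These 381 include the 3 other tested entries of the cluster, among them 6430411K18Rik, which was called lower. Over all tested genes 3.61% were lower and the median was 0.002. Of a list of 24 chromosome 12 neighbours, 22 were tested and 1 was called, Tecpr2 (log2 fold change -0.28 ± 0.09 SE, adjusted p = 0.0461, edgeR). The Tecpr2 call was lost in 7 of 8 fits that left out 1 library, where it ranged from -0.32 to -0.23, and kept only without scrambled replicate 2.

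**Figure D4:**
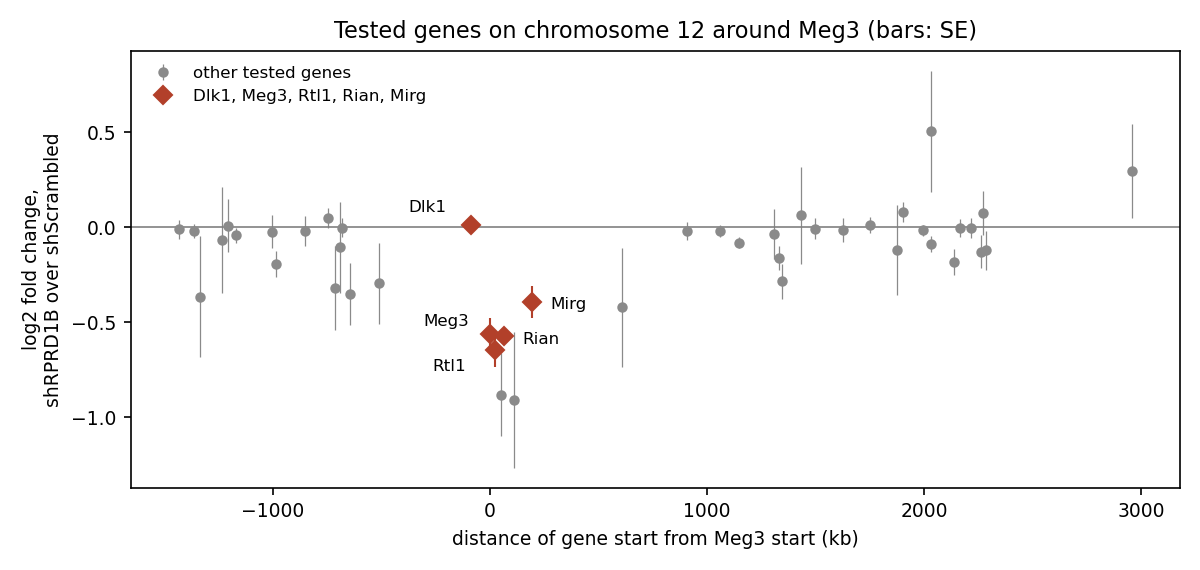
Fitted log2 fold change of knockdown over scrambled libraries (both sets, bars of 1 SE) for 45 tested genes within 3 Mb of the Meg3 start, against the distance of each gene's start from it in kb. Dlk1 lies near 0, Rtl1, Meg3, Rian and Mirg lie between -0.65 and -0.39, and 2 of the 40 other genes, both inside the cluster (6430411K18Rik and AF357359), lie below -0.5.

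The gene lists that follow describe the processes the cluster is tied to, by counts over both sets. Over all tested genes 7.57% were called, 3.61% were lower and the median log2 fold change was 0.002. Imprints are kept by zinc finger proteins with TRIM28, by DNA methyltransferases and by factors that bind the domain's control elements. Of 16 such genes 15 were tested, and 1 was higher and 1 lower, with a median log2 fold change of -0.0073. Aff3, which is known to bind the methylated control element upstream of Meg3 in mouse embryonic stem cells, had 6.18, 9.14, 7.57 and 8.59 CPM in knockdown libraries 1 to 4, against 11.3, 12.8, 13.8 and 11.4 CPM in scrambled libraries 1 to 4. Every knockdown library lay below every scrambled library for Aff3, as for 1.74% of tested genes. Aff3 fell, with a log2 fold change of -0.64 ± 0.12 (SE; adjusted p = 7.17e-05, edgeR), -0.64 in both sets. The part of Aff3 in the levels of the cluster RNAs was not tested. Tet3, which oxidises methylated cytosine, rose slightly, with a log2 fold change of 0.15 ± 0.04 (SE; adjusted p = 0.00943, edgeR). Within sets Tet3 had 0.225 in set 2 and 0.0555 in set 1, where it was not called (adjusted p = 0.722, edgeR). The Tet3 call was lost without knockdown replicate 4 (0.12, adjusted p = 0.101), scrambled replicate 3 (0.13, adjusted p = 0.0611) or scrambled replicate 4 (0.13, adjusted p = 0.0773).

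Of 11 components of Polycomb repressive complex PRC2, which Meg3 has been reported to bind, 11 were tested, 2 were higher and none lower, where 7.57% of all tested genes were called, with a median of 0.0022. Jarid2, a PRC2 cofactor, rose, with a log2 fold change of 0.26 ± 0.06 (SE; adjusted p = 0.00404, edgeR), and it stood at 43.1 ± 12 CPM in knockdown libraries and 36.4 ± 13.5 CPM in scrambled libraries. The log2 fold change of Jarid2 was 0.384 in set 1 and 0.171 in set 2, where it was not called (adjusted p = 0.219, edgeR). Phf19, another cofactor, averaged 1.25 ± 0.144 CPM in knockdown libraries and 0.558 ± 0.432 CPM in scrambled libraries (log2 fold change 1.19 ± 0.38 SE, adjusted p = 0.0382, edgeR). The Phf19 call was kept only without knockdown replicate 1 (1.29) or scrambled replicate 2 (1.74) among 8 fits that left out 1 library, and the lowest value was 0.936 without scrambled replicate 4.

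DLK1 is cut from the membrane by ADAM17 and has been linked to Notch signalling. Of 18 Notch and DLK1 processing genes 8 were tested and none was called by edgeR or DESeq2, with none at an unadjusted edgeR p under 0.05 and a median of -0.03. Of 13 adipocyte differentiation genes 7 were tested, and 1 was higher: Sox9, a transcription factor that DLK1 signalling is known to raise in preadipocytes (log2 fold change 0.13 ± 0.03 SE, adjusted p = 0.00795, edgeR). The Sox9 call was lost without scrambled replicate 1 (0.11, adjusted p = 0.0713). Within sets Sox9 had 0.175 in set 2 and 0.0972 in set 1, where it was not called (adjusted p = 0.222, edgeR).

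Of 10 microRNA processing genes 10 were tested, 1 was higher and 2 were lower, where 7.57% of all tested genes were called and 3.61% were lower, with a median of 0.00069. Eif2c2, the older symbol of the Argonaute gene Ago2, rose (log2 fold change 0.16 ± 0.04 SE, adjusted p = 0.00126, edgeR). Eif2c3, another Argonaute gene, fell by 0.18 on the log2 scale (adjusted p = 0.0132, edgeR), and Xpo5, the exporter of microRNA precursors, fell by 0.16 (adjusted p = 0.0161, edgeR). The call of Eif2c3 was lost without knockdown replicate 1, 2 or 4 or scrambled replicate 1, where its value ranged from -0.25 to -0.15 over the 8 fits that left out 1 library. That of Xpo5 was lost without knockdown replicate 2 or 4 or scrambled replicate 1 or 4, with values from -0.19 to -0.14 over the 8 fits.

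Of 17 genes of the imprinted gene network, a group of imprinted genes known to be expressed together in growing tissue, 12 were tested, and 2 were higher and 2 lower, where 7.57% of all tested genes were called and 3.61% were lower, with a median of -0.00059. Grb10, an adaptor that restrains insulin and growth factor signalling, fell (826 ± 52.7 CPM in knockdown libraries and 970 ± 47.4 CPM in scrambled libraries, log2 fold change -0.23 ± 0.03 SE, adjusted p = 2.96e-08, edgeR). Igf2, a fetal growth factor that was scarce here at 0.964 ± 0.279 CPM in knockdown libraries and 2.24 ± 0.591 CPM in scrambled libraries, fell by 1.18 on the log2 scale (adjusted p = 0.00393, edgeR). The log2 fold change of Igf2 was -1.74 in set 1 and -0.733 in set 2, where it was not called (adjusted p = 0.342, edgeR). Peg3, an imprinted zinc finger gene of the paternal copy, rose (54.1 ± 15.1 CPM in knockdown libraries and 40.9 ± 13.7 CPM in scrambled libraries, log2 fold change 0.41 ± 0.06 SE, adjusted p = 3.67e-07, edgeR). Gnas, named after its values were seen, also rose, with a log2 fold change of 0.11 (adjusted p = 0.0114, edgeR).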

How the data were processed

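RNA-seq was made from 8 NIH3T3 libraries. The deposited tables hold whole-number counts per gene, and the authors' comparisons hold a signal (mean scaled count), a log2 fold change, its SE and a q-value per set. Per the submitters' processing notes, the build is mm10. The sources used here name no aligner, counting tool or annotation. Per the labels, paired-end reads of 75 bases came from a random-hexamer cDNA library.

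edgeR 4.0.16 tested genes whose mean count reached 10 (R 4.3.3; quasi-likelihood, robust, TMM scaling, set as a term), and a call is an adjusted p (Benjamini-Hochberg, over all genes tested) below 0.05. SE was taken as the size of the log2 fold change divided by the root of F. CPM is TMM-scaled, and 27 names that a spreadsheet turned into dates stayed in the totals. Positions and sequences are RefSeq GRCm38.p6 (21571 of 23420 entries matched) and lengths GENCODE M21 (21751 matched). Whether replicate numbers pair libraries is not stated, and the main fits did not pair them. The deviations of libraries with equal numbers had a correlation over genes of 0.0364 (set 1) and -0.0522 (set 2). With 2 libraries per group and set, these values cannot settle whether libraries were paired.

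Members and lists were chosen with earlier results of these data known. Besides the members and Rprd1b, the text names up to 3 called genes per list by smallest p, the tested genes nearest each end of the cluster, and the 4 genes most like Dlk1. Gnas, the called cell type markers, the other cluster entries and the genes most like Meg3 fall outside that rule and were chosen after their values were seen. Alternatives were other filters, scalings, DESeq2 1.42.0, a replicate block, no set term and leaving out each library. The fits were also tested on simulated data.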

Additional observations from a re-analysis of the deposited data

Results flagged for a closer look

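The lower level of Meg3 in knockdown libraries differed in size between the sets. The log2 fold change was -0.40 ± 0.05 (SE) in set 2 and -0.72 ± 0.05 in set 1, a difference of 0.328 ± 0.08 (SE; set 2 minus set 1). It was picked out because the interaction of set and group passed the threshold in edgeR, as for 29 of 11723 genes (0.247%). Meg3 was chosen with its values known, so the difference is given as a description, without a p-value. It did not pass by DESeq2, nor without knockdown replicate 1, knockdown replicate 3 or scrambled replicates 1, 3 or 4, with differences of 0.224 to 0.444 over the 8 fits that left out 1 library. Knockdown libraries had 179 and 154 CPM in set 2 and 169 and 185 CPM in set 1, while scrambled libraries had 215 and 221 CPM in set 2 and 300 and 285 CPM in set 1. What separates the sets was not stated, and its part was not tested.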

How the results depend on the processing

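Over both sets, no setting or left-out library moved a member's log2 fold change to the other side of 0 except for Dlk1, which ranged from -0.02 to 0.05. Leaving out 1 library gave -0.74 to -0.59 for Rtl1, -0.63 to -0.50 for Meg3, -0.60 to -0.54 for Rian and -0.45 to -0.30 for Mirg. Within sets it gave -0.50 to -0.28 for Meg3 in set 2, -0.72 to -0.29 for Rtl1 in set 2, -0.66 to -0.32 for Mirg in set 1 and -0.67 to -0.53 for Rian in set 1. The difference between sets ranged from 0.224 to 0.444 for Meg3, 0.0487 to 0.384 for Mirg, 0.0381 to 0.471 for Rtl1 and -0.00996 to 0.127 for Rian. With replicate number as a block 3 of 5 members were called, without Meg3 (-0.56), and without a set term 1 of 5 was.

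Gene counts varied more. Leaving out 1 library, 625 to 829 genes were called over both sets, 113 to 571 in set 1, 273 to 355 in set 2 and 7 to 53 for the difference. DESeq2 called 140 in set 1, 184 in set 2 and 5 for the difference, against 50 with no filter. Without a set term 18 were called, and 0 in the lists of chromosome 12 neighbours, imprint upkeep, PRC2, adipocyte differentiation, microRNA processing and the imprinted network. Chromosome 12 neighbours gave 0 with no filter, 0 with the replicate block and 2 with upper-quartile scaling. PRC2 gave 1 with a mean count of at least 50 and 1 by DESeq2, and adipocyte differentiation 2 with no filter. Leaving out 1 library gave 0 to 1 neighbours, 1 to 2 imprint upkeep genes, 1 to 2 PRC2 genes, 0 to 2 adipocyte genes and 1 to 3 microRNA processing genes. The cause was not tested.

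Not dividing by length gave scrambled ratios to Meg3 of 3.04 (Dlk1), 0.0999 (Rtl1) and 0.0952 (Mirg). The longest transcript, chosen after seeing the data, gave 0.229 (Rtl1), 1.58 (Rian) and 0.362 (Mirg). The nearest genes to Dlk1 changed sign around 0: Il1rap -0.00204 with upper-quartile scaling and -0.0294 to 0.0374 without 1 library, Hspb6 -0.0548 to 0.0122 and Nmt1 -0.0227 to 0.0581. Hairpin entries held too few counts for a test.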
